A study of Mus musculus with 8 samples.

Results

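The genes described here are those through which skin cells send, receive and block Wnt signals. They are the 46 mouse genes whose name on the array is that of a Wnt ligand, a Frizzled receptor, one of the co-receptors Lrp5, Lrp6, Lgr5 and Lgr6, a secreted antagonist of the Sfrp, Dkk or Wif1 kind, or one of Lef1, Tcf7, Axin1 and Axin2. They were chosen by name, not by any measured value, though with earlier results of these data known. They stand among 27792 genes or unnamed probes on the array. The 46 genes comprise 19 ligands, 14 receptors, 9 antagonists and 4 nuclear or scaffold genes, read by 63 probes that carry their names.

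The mice were SKH-1 males, which lack fur, aged 19 weeks, and RNA from the dorsal skin of each of 8 animals was read on 1 single-colour (Cy3) Agilent array. All 8 had been irradiated with UVB for 10 weeks, and treatment began 1 week later. In the enalapril group (n = 4), 100 µl of 1% w/v enalapril maleate in 30 vol % ethanol was put on the back 5 times a week for 2 weeks. In the vehicle group (n = 4), 100 µl of 30 vol % ethanol was applied in the same way. Enalapril inhibits angiotensin-converting enzyme. Every mouse was irradiated, so no comparison with unirradiated skin can be made. The series text also speaks of 6 weeks of treatment and of 6 mice per group, and the labels say that samples with adequate RNA integrity were used.

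Wnt ligands are secreted lipid-modified proteins that bind a Frizzled receptor together with Lrp5 or Lrp6, which stops the Axin-containing complex from destroying beta-catenin. Beta-catenin then enters the nucleus and, with Tcf7, Lef1 and their relatives, switches on target genes, among them Axin2, which feeds back on the pathway. Sfrp proteins and Wif1 bind the ligands outside the cell, while Dkk1, Dkk2 and Dkk4 bind the Lrp co-receptors. In skin the pathway is known for forming hair follicles and for starting each round of hair growth, and Lgr5, a receptor for R-spondins, marks stem cells of the follicle.

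The arrays had 67.1% to 72.7% of their spots well above background and none saturated, and the 75th percentile of processed intensity lay between 821.5 and 1540 units. Slide 2, read in scan 2, carried the 4 enalapril arrays, and slide 1, read in scan 1, carried the 4 vehicle arrays. Treatment, slide and scan therefore cannot be told apart. Median local background was 48 to 52 units on enalapril arrays and 57.5 to 66 on vehicle arrays. The enalapril 4 array lay farthest from its own group, at a mean distance of 85.7 log2 units over all tested genes, against 63.9 to 71.0 for the other enalapril arrays and 55.4 to 59.8 for vehicle arrays. The tissue label was checked against its markers: the keratinocyte genes Krt5, Krt14 and Krt10 and the collagen gene Col1a1 were well above background on every array, and none of the 4 basal keratinocyte, 4 suprabasal keratinocyte or 6 fibroblast markers passed the test between groups.

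A level below is the log2 of the processed intensity minus the log2 75th percentile of the same array, so it can be compared between arrays for 1 probe but not between probes. A gene is said to have changed where limma's moderated two-sided test, adjusted by Benjamini-Hochberg over the 19129 genes tested, gave an adjusted p under 0.05. Errors on differences are limma's standard errors with 4 arrays per group. A gene was tested where its probe stood well above background on 4 or more of the 8 arrays. Skin is a mixture of cell types, so fewer cells of a type and less RNA per cell cannot be told apart.

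Of the 46 genes, 40 were tested and 7 changed. The R-spondin receptor Lgr5, the secreted antagonists Dkk3 and Dkk2 and the scaffold gene Axin1 rose with enalapril, while the ligand Wnt2, the receptor Fzd9 and the antagonist Sfrp4 fell. The share of the 40 that changed was 17.5%, against 14.2% of all tested genes, and was near that background. The 4 that rose stand beside a background of 4.33% of tested genes that rose, and the 3 that fell beside 9.85% that fell. All 4 enalapril arrays lay on one side of all 4 vehicle arrays for 9 of the 40, namely the 7 that changed plus Wif1 and Fzd4. Among all tested genes that share was 22%. The median log2 difference, enalapril minus vehicle, was 0.04 over the 40 genes and −0.08 over all tested genes. These counts varied when 1 array was left out: without enalapril 4 there were 7 rises and 3 falls, and without enalapril 1, enalapril 2, vehicle 1 or vehicle 4 there were 2 rises and 0 falls. The calls over all tested genes varied too, from 262 to 1730 rises and from 534 to 3215 falls. At an unadjusted limma p under 0.05, 8 listed genes were higher and 6 lower with all arrays. Without enalapril 1, enalapril 2, vehicle 1 or vehicle 4, 8 were higher each time, and 6, 7, 7 and 5 lower in that order.

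By role, 1 of 15 tested ligands fell and 0 rose (1 in each direction at an unadjusted p under 0.05), and 4 had a positive difference. Of 14 receptors 1 rose and 1 fell, of 7 antagonists 2 rose and 1 fell, and of the 4 nuclear or scaffold genes 1 rose. The median differences were −0.10 for ligands, 0.15 for receptors, 0.24 for antagonists and 0.19 for the nuclear and scaffold genes, but all 4 medians lay below 0 in the uncentred series matrix values (−0.46, −0.22, −0.13 and −0.17 in the same order). In those values the median of all tested genes was itself −0.45. These are descriptions of lists, and the difference between roles was not tested.

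**Figure D1:**
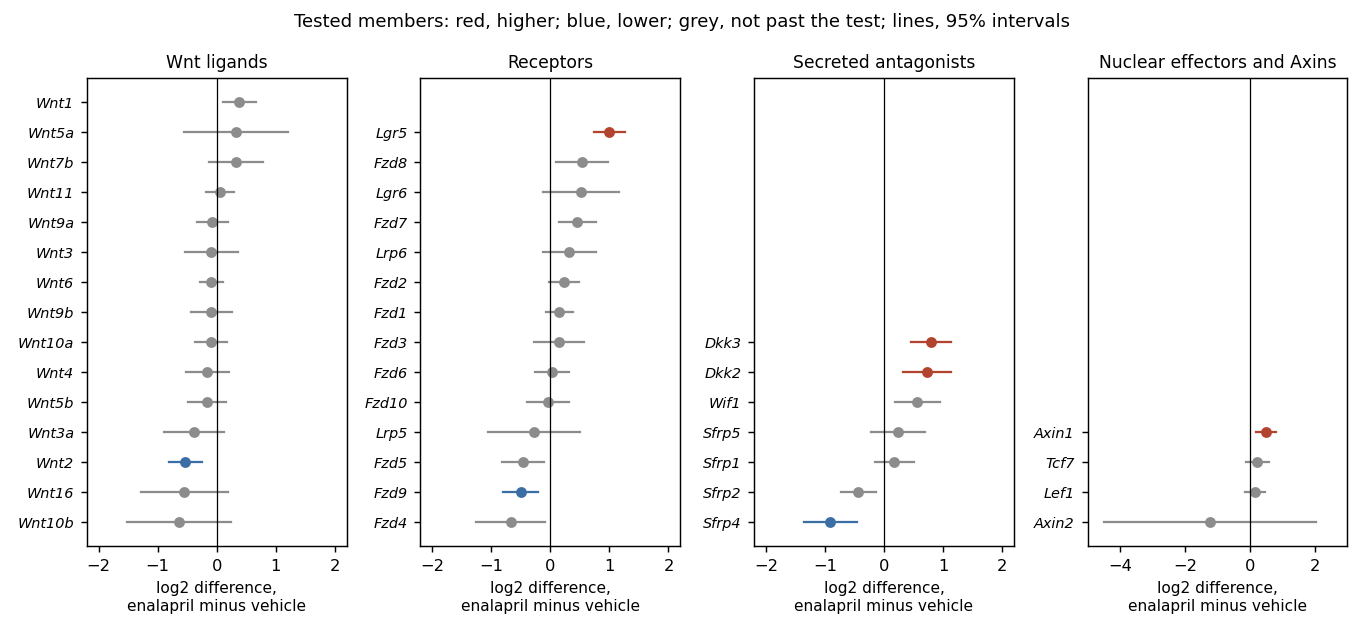
Log2 difference, enalapril minus vehicle, for the 40 tested genes in 4 panels by role, with points for limma's estimate and lines for its 95% interval; the Axin2 panel has a wider axis. Red points are the 4 genes that rose, blue points the 3 that fell, and grey points the rest; the red points lie among the receptors, antagonists and the Axin panel, and none among the ligands.

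Promoters are shown for the 3 changed genes that the promoter table from RefSeq (build GRCm38.p6) holds, so that the letters a beta-catenin partner would read can be seen beside the expression. Each line is the 250 bases before the start of the gene, 5′ to 3′ on the gene's own strand. Capitals mark the short core CAAAG, or CTTTG when read from the other strand, of the longer motif ATCAAAG that Tcf7 and Lef1 proteins recognise.
Dkk2: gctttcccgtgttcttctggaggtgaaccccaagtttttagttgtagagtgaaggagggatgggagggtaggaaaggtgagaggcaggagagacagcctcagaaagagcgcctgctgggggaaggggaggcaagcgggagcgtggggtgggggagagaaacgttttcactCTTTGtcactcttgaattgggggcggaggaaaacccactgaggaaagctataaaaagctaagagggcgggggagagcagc
Wnt2: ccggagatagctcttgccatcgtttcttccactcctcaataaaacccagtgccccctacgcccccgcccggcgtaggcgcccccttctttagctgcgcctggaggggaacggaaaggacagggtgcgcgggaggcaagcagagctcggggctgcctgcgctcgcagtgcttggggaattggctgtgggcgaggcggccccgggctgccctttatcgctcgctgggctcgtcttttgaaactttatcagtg
Fzd9: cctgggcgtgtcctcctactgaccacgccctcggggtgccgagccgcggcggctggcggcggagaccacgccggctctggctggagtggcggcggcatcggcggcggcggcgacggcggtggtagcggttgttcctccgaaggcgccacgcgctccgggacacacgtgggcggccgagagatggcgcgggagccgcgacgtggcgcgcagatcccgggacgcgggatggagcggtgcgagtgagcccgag

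The Dkk2 stretch lies at chr3:132085042-132085291 on the plus strand, the Wnt2 stretch at chr6:18030446-18030695 on the minus strand and the Fzd9 stretch at chr5:135251048-135251297 on the minus strand. Dkk2, which rose, has 1 copy of the core, and Wnt2 and Fzd9, which fell, have 0. None of these 3 stretches holds ATCAAAG on either strand. They differ in base composition: guanine and cytosine make up 55.6% of the Dkk2 stretch with 7 CG pairs, 63.6% of the Wnt2 stretch with 20 CG pairs, and 76.4% of the Fzd9 stretch with 42 CG pairs. The table holds 37 windows for 30 of the 46 genes, each running from 250 bases before the start to 50 after it. ATCAAAG occurred in 5.41% of these 37 windows, those of Wnt5b and Wnt11, and in 3.73% of all 32851 windows. Neither of those ligands changed. The shorter core occurred in 48.6% of the windows of the listed genes and in 53.9% of all windows. A match is a description of letters, and its absence says only that the letters are not in this window.

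Among the ligands, Wnt2 was the only one of 15 tested to change, and it fell. Wnt2 activates the beta-catenin pathway and is best known from lung and placenta. Its level was −0.69, −0.55, −0.41 and −0.75 on the enalapril arrays, against 0.16, −0.10, −0.27 and −0.08 on the vehicle arrays. The 2 sets do not overlap, with enalapril 3 and vehicle 3 the nearest pair. The difference was −0.53 ± 0.12, a 1.44-fold lower level (limma adjusted p = 0.0280). The call did not hold without enalapril 1, enalapril 2, vehicle 1, vehicle 2 or vehicle 4, where the adjusted p reached 0.0735, nor without a filter on dim probes (0.0539), with the replicate block (0.0853) or after normexp background correction (0.334).

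Wnt1, the founding mammalian ligand of the family, was read by a dim probe that was still called well above background on all 8 arrays, and it did not pass. Its level was −5.11, −5.30, −5.02 and −5.01 with enalapril, against −5.23, −5.53, −5.52 and −5.70 with vehicle, a difference of 0.38 ± 0.13 (limma adjusted p = 0.0742). Enalapril 2 lay below vehicle 1, and the other 3 enalapril arrays lay above every vehicle array. By quantile normalization it passed (limma adjusted p = 0.0434). The Wnt1 probe is printed at 10 places on the array, the only one of the 63 with repeated spots. It counted as well above background on an array where any unflagged spot did, which gave it more chances than a single-spot probe. The 10 spots differed in direction. Over the first 2 spots from the top of the array the difference was −0.76, over the next 5 it was 0.35 and over the last 3 it was 1.21. At 1 of the middle 5 places enalapril 1 read 109 units, against 25.5, 29.1 and 27 units on enalapril 2, 3 and 4. The level of enalapril 1, its place above every vehicle array and the 0.35 include that spot, and values without it were not computed. The median intensity on enalapril arrays was 14.9, 29.9 and 28.1 units in these 3 stretches, against 35.2, 34.3 and 17.9 units on vehicle arrays. The sign of a dim probe's difference thus varied with its place on the array, and the other dim probes in the list have a single spot.

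**Figure D2:**
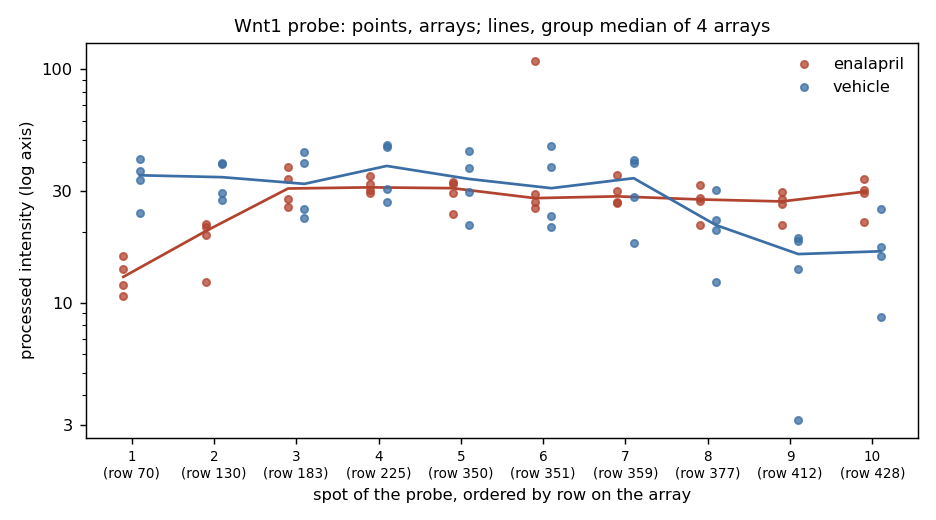
Processed intensity (log axis) of the 10 spots of the Wnt1 probe, ordered by their row on the array, with a point for each array and a line through the median of 4 arrays in each group. Enalapril spots lie below vehicle spots at the first 2 places and mostly above them at the last 3.

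Wnt3a, which sustains beta-catenin signalling in many stem cell cultures, had levels of −2.09, −1.98, −1.36 and −2.26 with enalapril, against −1.95, −1.61, −1.21 and −1.39 with vehicle. The groups overlap, and the difference of −0.38 ± 0.22 did not pass (limma adjusted p = 0.271). Wnt16, a ligand known for its role in bone, had −4.58, −4.14, −4.76 and −5.63 with enalapril, against −4.38, −4.67, −4.19 and −3.67 with vehicle. Its groups also overlap, and the difference was −0.55 ± 0.32 (limma adjusted p = 0.273). Wnt16 took the other sign after normexp background correction, a model of the local background described with the processing, at 0.62, and passed at −0.92 in the uncentred series matrix values (limma adjusted p = 0.0459).

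The other 11 tested ligands had differences between −0.64 (Wnt10b) and 0.33 (Wnt5a), and none passed. Wnt10a, whose loss in people disturbs teeth, sweat glands and hair, was measured closely, at 3.40 ± 0.18 with enalapril and 3.50 ± 0.13 with vehicle (SD, n = 4 each). The 95% interval of its difference ran from −0.37 to 0.17. Wnt4, a ligand needed in kidney and female reproductive tract, had an interval of −0.53 to 0.20, and Wnt3, a ligand of the early embryo and limb, one of −0.55 to 0.36. For Wnt6 the interval was −0.29 to 0.10, and for Wnt11, which acts mainly without beta-catenin, −0.19 to 0.28. Wnt5a, the best-known ligand acting without beta-catenin, had a wide interval of −0.55 to 1.21, with enalapril 4 at −5.50 and the other 3 enalapril arrays between −3.95 and −3.80. Second probes for Wnt3 (0.43), Wnt5b (−0.11) and Wnt6 (0.14) did not pass either, and for Wnt3 and Wnt6 their sign was opposite to that of the brighter probe.

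Of the ligands, 4 were not tested. Wnt2b, Wnt8a and Wnt8b were not well above background on any array. Wnt7a was well above background on no enalapril array and on 1 vehicle array. A second, dimmer probe for Wnt9a was well above background on no enalapril array and on 2 of 4 vehicle arrays. By the bound that a dim signal allows, its mean vehicle level was at least 1.06-fold higher. That figure carries no error, the groups of this probe overlap, and the probe was not tested. Such a bound sets the mean of the brighter group against the higher of the dim probe's own signal and the lowest signal called well above background on each array.

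Among the receptors, Lgr5 rose and Fzd9 fell. Lgr5 was the 44th gene of 19129 by p-value and had the smallest p of the list. Its level was −0.07, −0.08, −0.15 and −0.38 on the enalapril arrays, against −0.99, −1.31, −1.10 and −1.27 on the vehicle arrays. Every enalapril array lay above every vehicle array, with a gap wider than the spread within either group. The difference was 1.00 ± 0.12, a 1.99-fold higher level (limma adjusted p = 0.00631), and the call held in all 8 fits that each left out 1 array.

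The Lgr5 difference is relative to the rest of each array. Before scaling, the intensities of the probe were 1020, 832, 740 and 672 units with enalapril, against 449, 622, 718 and 367 units with vehicle, and enalapril 4 then lay below vehicle 3. In the uncentred series matrix values the difference was 0.63 (limma adjusted p = 0.153) and with centring on spiked-in E1A control probes 0.66 (limma adjusted p = 0.0629), so the call was lost in both. A second Lgr5 probe was not well above background on any array and gives no second reading.

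Fzd9, a Frizzled receptor studied mainly in bone and brain, had levels of −2.90, −2.65, −2.37 and −2.55 with enalapril, against −1.95, −2.24, −2.11 and −2.17 with vehicle. The groups do not overlap, with enalapril 3 and vehicle 2 the nearest pair. The difference was −0.50 ± 0.13, a 1.42-fold lower level (limma adjusted p = 0.0384). The call held without enalapril 3 (0.0478) and without enalapril 4 (0.0317), but not without any of the other 6 arrays, where the adjusted p reached 0.1001. After normexp background correction the difference was 0.079, with the other sign. With 6 backgrounds taken as misread, those over 10 times the median of their array, reset before it, the difference was −0.26 and did not pass (limma adjusted p = 0.246). It also missed the threshold in the series matrix values (0.0534), without a filter on dim probes (0.0689) and with the replicate block (0.0947).

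Fzd7, a Frizzled found in many stem cells, came near the threshold. Its level was −0.15, −0.18, −0.21 and −0.61 with enalapril, against −0.93, −0.59, −0.83 and −0.61 with vehicle. Enalapril 4 lay among the vehicle arrays, and the other 3 lay above all of them. The difference was 0.46 ± 0.14 (limma adjusted p = 0.0576), and without enalapril 4 it was 0.56 and passed (limma adjusted p = 0.0117). It also passed with misread backgrounds reset (0.0493), with an intensity trend (0.0443) and with array weights (0.0086). A second Fzd7 probe gave 0.19.

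Fzd5, a Frizzled needed in eye and placenta, had levels of −5.30, −4.99, −4.74 and −4.87 with enalapril, against −4.28, −4.79, −4.52 and −4.46 with vehicle. Only enalapril 3 lay inside the vehicle range, and the difference of −0.46 ± 0.15 did not pass (limma adjusted p = 0.0774). It took the other sign after normexp background correction, at 0.58, and passed with E1A centring (limma adjusted p = 0.0462) and with array weights (0.0418). A brighter clone-named probe for Fzd5, described below, ordered the arrays differently. The groups of Fzd4, the receptor for Norrin in blood vessels, did not overlap, but its enalapril arrays spread widely, at 0.61, 0.82, 0.75 and −0.38, against 0.93, 1.07, 1.39 and 1.09 with vehicle. Fzd4 gave −0.67 ± 0.26 (limma adjusted p = 0.114).

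The other 9 receptors had differences between −0.28 (Lrp5) and 0.53 (Fzd8), and none passed. The co-receptors Lrp5 and Lrp6, which every beta-catenin signal needs, had 95% intervals of −1.05 to 0.50 and −0.13 to 0.77. On the enalapril 4 array Lrp5 stood at −1.07, against 0.47 to 0.57 on the other enalapril arrays. Fzd1, Fzd6 and Fzd10, Frizzleds read by bright probes, had intervals of −0.08 to 0.38, −0.26 to 0.32 and −0.40 to 0.32. Lgr6, another R-spondin receptor of skin stem cells, gave 0.52 ± 0.28 (limma adjusted p = 0.237) and 0.33 on its second probe.

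A few receptors were read differently by their other probes. Fzd3, a receptor of axon guidance and planar cell polarity, gave 0.15 on the brighter of the 2 probes that carry its name and 0.36 on the dimmer one. Another probe, named on the array only as the cDNA clone D930050A07Rik and assigned to Fzd3 by its accession, stood at −2.75, −3.21, −3.05 and −2.48 with enalapril, against −3.70, −3.72, −3.93 and −3.97 with vehicle. These groups do not overlap, and the difference was 0.96 ± 0.17 (limma adjusted p = 0.0183 with every probe fitted). This probe was the brightest of the 3 but does not carry the gene name, so Fzd3 is counted here as not changed. The 3 probes disagree in size, and which transcript the clone probe reads is not known from the files. A clone-named probe assigned to Lrp6 gave −0.40, against 0.32 on the Lrp6 probe. One assigned to Fzd5, brighter than the Fzd5 probe used, stood at −3.05, −3.37, −3.69 and −5.82 with enalapril, against −3.74, −3.78, −3.77 and −3.66 with vehicle. On it enalapril 1 and enalapril 2 lay above every vehicle array and enalapril 4 far below. Its difference was −0.25 (limma adjusted p = 0.795 with every probe fitted). The second Fzd2 probe was well above background on all 4 enalapril arrays and on 1 vehicle array, and no size is given for it. The second Fzd8 probe was well above background on all 4 enalapril arrays and on no vehicle array. By the bound on its means, which carries no error, its enalapril level was at least 1.03-fold higher. Its groups overlap, and its difference of 0.43 did not pass (limma adjusted p = 0.148 with every probe fitted).

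Among the secreted antagonists, Dkk3 and Dkk2 rose and Sfrp4 fell. Dkk3 is the divergent member of the Dickkopf family and, unlike its relatives, is not known as a firm Lrp blocker. Its level was 1.44, 1.01, 1.09 and 0.71 on the enalapril arrays, against 0.29, 0.27, 0.29 and 0.21 on the vehicle arrays. The 4 vehicle arrays agree closely, and the lowest enalapril array lies well above them. The difference was 0.80 ± 0.15, a 1.74-fold higher level (limma adjusted p = 0.0158), and the call held in all 8 fits with 1 array left out.

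Dkk2 binds Lrp co-receptors, blocks or weakly activates the pathway depending on the cell, and holds back hair growth in the plantar skin of mice. Its level was 1.38, 0.95, 0.65 and 1.23 with enalapril, against 0.26, 0.055, 0.60 and 0.38 with vehicle. The groups only just separate, with enalapril 3 next to vehicle 3. The difference was 0.73 ± 0.18, a 1.66-fold higher level (limma adjusted p = 0.0338). The call was lost without enalapril 1, enalapril 2, vehicle 1, vehicle 2 or vehicle 4, where the adjusted p reached 0.0838. It was also lost in 7 other settings, among them median centring (0.0595) and normexp with misread backgrounds reset (0.0521).

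Sfrp4, a secreted Frizzled-related protein that binds Wnts, had levels of −0.63, −0.096, −0.44 and 0.26 with enalapril, against 0.72, 0.42, 0.76 and 0.82 with vehicle. The groups do not overlap, with enalapril 4 the highest of its group. The difference was −0.91 ± 0.19, a 1.87-fold lower level (limma adjusted p = 0.0234). The call was lost without enalapril 1, enalapril 2, enalapril 3, vehicle 1 or vehicle 4, where the adjusted p reached 0.0632, or with the replicate block (0.0561) and after normexp background correction (0.288).

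Wif1, the Wnt inhibitory factor, had levels of −0.47, −1.0, −0.42 and −0.88 with enalapril, against −1.12, −1.45, −1.05 and −1.41 with vehicle. The groups do not overlap, although enalapril 2 and vehicle 3 are close. The difference was 0.57 ± 0.17 and missed the threshold (limma adjusted p = 0.0542), passing without enalapril 4 (limma adjusted p = 0.0353) and in no other fit that left out an array. It also passed with misread backgrounds reset (0.0357) and in 4 other settings at the same threshold.

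The other Sfrp genes did not pass. Sfrp2, a Wnt binder abundant in dermal fibroblasts, had −0.43 ± 0.13 (limma adjusted p = 0.0584), with enalapril arrays at 0.73, 0.75, 1.02 and 0.56, against 1.30, 1.26, 0.95 and 1.30 with vehicle. Enalapril 3 and vehicle 3 cross, and the remaining 3 arrays of each group stand apart. Sfrp1 gave 0.18 on its chosen probe and 0.26 on its second, and Sfrp5 gave 0.24. Dkk1 and Dkk4, both blockers of Lrp co-receptors, were not well above background on any array, so the Dickkopf family was measured through Dkk2 and Dkk3 alone.

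**Figure D3:**
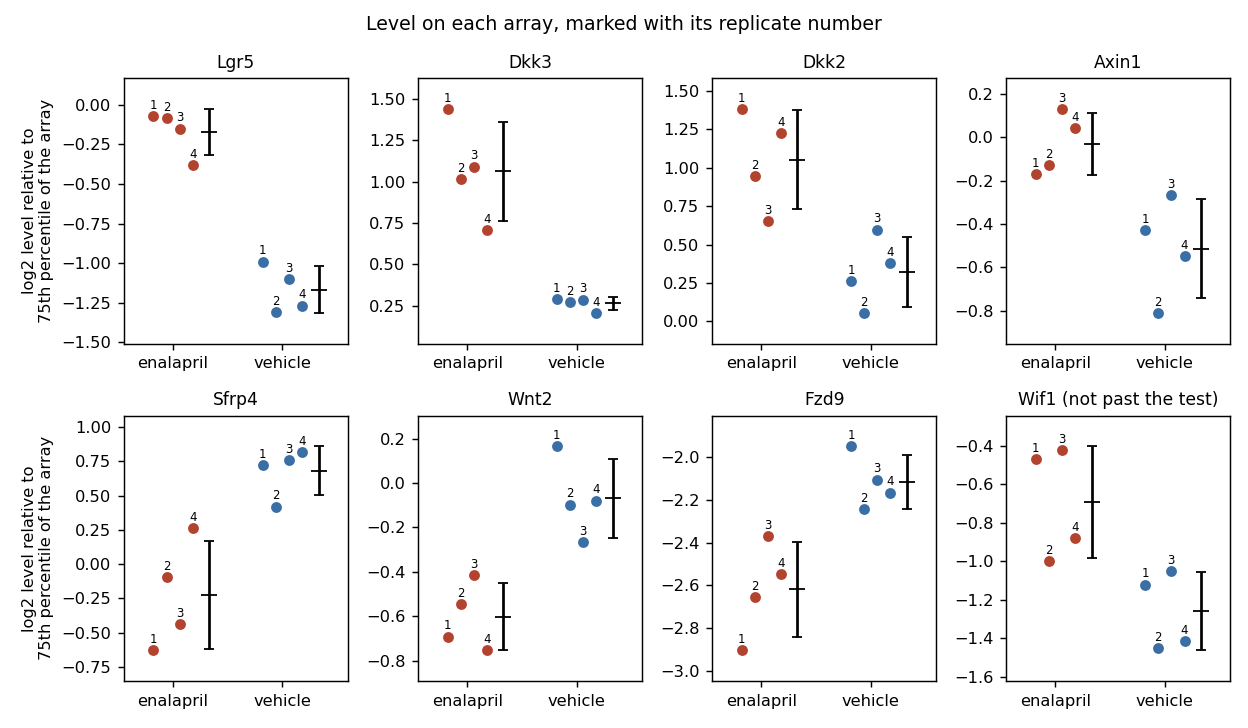
Level of the 7 genes that changed, and of Wif1, on each array, as log2 relative to the 75th percentile of the array; points are arrays numbered by replicate, enalapril in red and vehicle in blue, and black bars are the mean ± SD of 4 arrays. The panels have different vertical scales. Groups do not overlap in any panel, and the gap is widest for Lgr5 and narrowest for Dkk2 and Wif1.

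Among the nuclear and scaffold genes, Axin1 rose, with the largest adjusted p of the 7. Axin1 is the scaffold of the complex that marks beta-catenin for destruction. Its level was −0.17, −0.13, 0.13 and 0.042 with enalapril, against −0.43, −0.81, −0.27 and −0.55 with vehicle. The groups do not overlap, with enalapril 1 and vehicle 3 the nearest pair. The difference was 0.48 ± 0.14, a 1.40-fold higher level (limma adjusted p = 0.0476). It kept its call without vehicle 3 (limma adjusted p = 0.0406) and lost it without each of the other 7 arrays, where the adjusted p reached 0.115. Over all 22 alternatives Axin1 lost its call in 17, including quantile normalization (0.0570), median centring (0.0944), a fit on the mean of each gene's probes (0.0537), normexp with misread backgrounds reset (0.0620) and the replicate block (0.0704).

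Axin2, the target gene most used to read beta-catenin activity, could not be placed in either direction. Its level was −1.93, −8.71, −1.91 and −1.83 with enalapril, against −2.66, −2.16, −2.74 and −1.88 with vehicle. The enalapril 2 spot had an intensity of 2.11 units and was not well above background, while the other 3 enalapril spots had 219 to 280 units and the vehicle spots 141 to 345 units. With all arrays the difference was −1.23 ± 1.43 (limma adjusted p = 0.588), and without enalapril 2 it was 0.47. In the series matrix values it was −1.60 and passed (limma adjusted p = 0.0126), with the same enalapril 2 spot included. Axin2 has this 1 probe on the array.

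Tcf7, a DNA-binding partner of beta-catenin, had levels of −1.76, −2.19, −2.10 and −2.53 with enalapril, against −2.31, −2.50, −2.24 and −2.43 with vehicle, a difference of 0.22 ± 0.16 (limma adjusted p = 0.364). Lef1, its relative and a marker of hair matrix and dermal papilla, had −2.48, −2.13, −2.09 and −1.96 with enalapril, against −2.30, −2.16, −2.48 and −2.35 with vehicle, a difference of 0.16 ± 0.13 (limma adjusted p = 0.436). The groups overlap for both, and both differences took the other sign in the series matrix values and with E1A centring. A second probe gave 0.44 for Tcf7 and 0.17 for Lef1, and neither passed.

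Further genes of the pathway were read from a list of 83, of which 78 were tested. Among them 2 rose and 4 fell, 7.69% in all, against the 14.2% of tested genes that changed, and the median difference was −0.01. The receptor tyrosine kinase gene Ror1, which binds Wnt5a, rose by 0.85 ± 0.12 (limma adjusted p = 0.00900), and Bcl9l, a co-activator of beta-catenin, rose by 0.74 ± 0.14 (limma adjusted p = 0.0174). Ror1 stood at −4.70, −4.52, −4.50 and −4.71 with enalapril, against −5.46, −5.20, −5.60 and −5.59 with vehicle, with no overlap. The Lrp-binding inhibitor Sost had −0.75 ± 0.15 (limma adjusted p = 0.0176), and the Dkk3-related gene Dkkl1 had −0.74 ± 0.14 (limma adjusted p = 0.0160). Bambi, a decoy receptor for TGF-beta and a beta-catenin target, had −0.57 ± 0.13 (limma adjusted p = 0.0264), and Nkd2, which binds Dishevelled, had −0.46 ± 0.13 (limma adjusted p = 0.0455). Sost and Dkkl1 were 2 of 10 listed as other extracellular inhibitors, whose median difference was −0.27. With 1 array left out, the further list had 1 to 13 rises and 1 to 5 falls, and both of the highest counts came without enalapril 4. No tested gene of the secretion, R-spondin and ubiquitin ligase, or planar polarity groups passed (0 of 2, 0 of 6 and 0 of 13, and 0 in each at an unadjusted p under 0.05).

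Markers of other cell types moved in the same comparison. Beside the counts below, 4.33% of all tested genes rose and 9.85% fell. Each sum of linear levels below follows the brightest probes of its list and does not weigh the genes equally. Of 5 tested dermal papilla markers, Prlr (0.62 ± 0.14, limma adjusted p = 0.0278) and Vcan (0.54 ± 0.15, limma adjusted p = 0.0463) rose, and the summed linear level of the list was 1.06 to 1.42 on enalapril arrays, against 0.914 to 1.03 on vehicle arrays. Of the other 3 tested, Sox2 had 0.16, Corin −0.42 and Alpl −0.30 (limma adjusted p = 0.0768), the groups of Alpl not overlapping. The dermal papilla marker Hhip was not well above background on any array. Among 6 hair follicle stem cell markers Cd34 fell (−0.41 ± 0.10, limma adjusted p = 0.0333), with the list summing to 80.6 to 96.2 on enalapril arrays, against 96.0 to 106 on vehicle arrays. That sum follows its brightest probes, Cd34 and Krt15 (−0.16), while Gas1 (0.40, limma adjusted p = 0.0592), Sox9 (0.39), Nfatc1 (0.31) and Lhx2 (0.10) had positive differences, and the median of the 6 was 0.21. Of 9 tested hair matrix markers 0 changed, with 1 lower at an unadjusted p under 0.05. Adipocyte markers fell in 4 of 7 cases (Slc2a4, Cidec, Adipoq and Plin1), and the list summed to 128 to 178 on enalapril arrays, against 175 to 235 on vehicle arrays. That sum mostly follows Fabp4 (−0.35, limma adjusted p = 0.172), which did not pass and whose groups overlap. Skeletal muscle markers fell in 4 of 8, with sums of 406 to 449 on enalapril arrays, against 477 to 718 on vehicle arrays. The muscle markers that did not pass were Ckm (−0.76), Acta1 (−0.54), Atp2a1 (−0.04) and Myh4 (0.22). The smooth muscle gene Tagln fell (−0.52 ± 0.10, limma adjusted p = 0.0174). Its list of 4 summed to 43.4 to 54.0 on enalapril arrays, against 53.6 to 75.5 on vehicle arrays. In the same list Acta2 had −0.31, Cnn1 −0.20 and Myh11 0.36 (limma adjusted p = 0.140 for Myh11). The proliferation gene Top2a rose (0.58 ± 0.12, limma adjusted p = 0.0222). Its list of 4 summed to 7.13 to 9.65 on enalapril arrays, against 6.63 to 8.03 on vehicle arrays. Within that list Mki67 had 0.26, Cdk1 −0.02 and Ccnb1 −0.38 (limma adjusted p = 0.148 for Ccnb1). The part of these cell types in the differences of Lgr5, Dkk2, Dkk3, Sfrp4, Wnt2, Fzd9 and Axin1 was not tested.

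**Figure D4:**
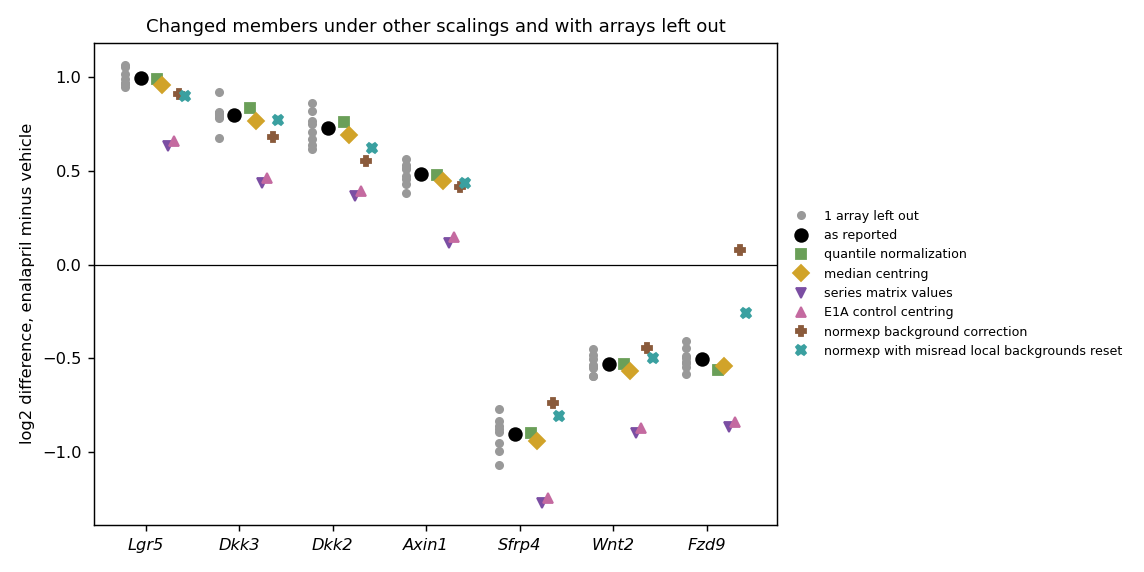
Log2 difference, enalapril minus vehicle, of the 7 genes that changed, as reported (black), with each of 8 arrays left out in turn (grey) and under 6 other scalings or background corrections (coloured). Fzd9 after normexp background correction, at 0.079, is the only point on the other side of 0, and the series matrix and E1A points lie below the reported ones for every gene.

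The number of calls that held varied with the scaling of the arrays. In the uncentred series matrix values, and with E1A centring, limma called 0 of the 40 genes higher and 6 lower, with 1 higher at an unadjusted p under 0.05 in each. The median of all tested genes was −0.45 and −0.42 in these 2 scalings, and the plot of differences by scaling shows all 7 genes displaced downwards by a similar amount. Lgr5 and Dkk3, whose calls held with every array left out, lost them under these 2 scalings and after normexp background correction. That correction left 0 calls over all genes. With 6 misread backgrounds reset before it, Lgr5 and Dkk3 kept their calls (limma adjusted p = 0.00927 and 0.0166). Sfrp4 and Wnt2 also kept theirs, and Fzd9, Dkk2 and Axin1 did not.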

How the data were processed

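The authors deposited 1 scanner file per array, and per the file headers the processed intensity came from Agilent Feature Extraction 9.1.3.1 (9.1 per the submitters' processing notes), background-subtracted and detrended within the array. The deposited 0 or 1 flags, such as well above background, served as filters. The authors' deposited series matrix has the log2 of that intensity, uncentred, as setting both side by side showed.

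Spots flagged as outliers were left out and spots of 1 probe averaged on the log2 scale. Probe names were updated through RefSeq (GRCm38.p6 table): 22951 probes matched by accession, 6659 by symbol and 3139 by synonym, 1262 kept the file's name and 7163 had none, and 47 of 41174 probes were left out. Values are the log2 processed intensity less the 75th percentile over non-control spots, and each listed gene is represented by the brightest probe that carries its name on the array. Probes with a clone name that RefSeq assigns to a listed gene were not used to represent it; those for Fzd3 and Fzd5 were brighter than the probe used, and the Fzd3 one passed the test. Groups were compared with limma 3.58.1 in R 4.3.3 (lmFit and eBayes, two-sided, Benjamini-Hochberg, group as the only term). The number of arrays, 4 per group, limits the precision. The labels name separate mice.

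The genes, lists and roles were chosen with earlier results of these data known. Values on every array are given for genes past the test and for the 4 smallest p-values in each of 4 roles. Fzd4, Sfrp2, the further probes, Ror1's arrays and the remaining single values were singled out after their values were seen. The alternatives tried were normexp (a background model, offset 50), normexp after resetting 6 misread local backgrounds, quantile and median scaling, the uncentred series matrix, looser and stricter filters, every probe or their mean, a robust fit with an intensity trend, weighted arrays, a block for the replicate number, a threshold of 0.10, and each array left out. A local background over 10 times the median of its array was taken as misread and set to that median. Whether these 6 were errors of reading was not tested. Centring on E1A control probes, the Wnt1 spots one by one and the CAAAG core were added after seeing the data. Replicate numbers were checked for pairing, and same-numbered arrays correlated at −0.16, 0.05, 0.15 and −0.02. The labels do not say that the numbers pair mice, and these few values cannot settle it.

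Tested on simulated data of 19129 genes, with 50 changed at each size, the fit called 14% of genes changed by 0.5 log2 and 68% by 1. It called 86% by 1.5 and 94% by 2, with 11 false calls. The simulated noise was independent between genes and had no slide effect. Far fewer genes changed there than the 2713 called here, so these shares need not hold for the real arrays.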

Additional observations from a re-analysis of the deposited data

Results flagged for a closer look

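In all, 8 values stood apart from the other 3 arrays of their group, relative to the range of that group. Such a gap can be small where the other 3 arrays agree closely, as for Wnt11. In 10% of the 80 groups of 4 arrays examined the gap from the extreme array to its neighbour took up most of the group's range, where chance gives about 1 in 20. The list was enalapril 4 for Wnt5a (−5.50, nearest array −3.95), Lrp5 (−1.07, nearest 0.47), Lrp6 (−2.07, nearest −1.32) and Fzd7 (−0.61, nearest −0.21). In each of these genes enalapril 4 was the lowest of its group. Enalapril 2 was lowest for Axin2 (−8.71, nearest −1.93) and for Wnt11 (−1.20, nearest −1.10). Vehicle 3 was highest for Sfrp1 (2.47, nearest 1.93) and lowest for Sfrp2 (0.95, nearest 1.26). None of these 8 genes passed the test with all arrays, and enalapril 4 was the array farthest from its own group over all tested genes.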

How the results depend on the processing

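The 4 rises and 3 falls among the listed genes, the 2 rises and 4 falls in the further pathway list, and the 829 rises and 1884 falls over all genes depended on the scaling, and the cause was not tested. After normexp background correction limma called 0 genes in every list and direction (at an unadjusted p under 0.05, 5 and 4 listed genes, 2 and 5 further genes, 763 and 1881 of all), with a list median of 0.35, and Fzd9 (0.079), Axin2 (0.086), Fzd5 (0.58) and Wnt16 (0.62) changed sign. With 6 misread backgrounds reset, 1255 of all genes fell, Fzd5 (0.019) and Wnt16 (0.022) changed sign, Fzd9, Dkk2 and Axin1 lost their calls, and Wif1 and Fzd7 gained one. Quantile normalization gave 4 further genes higher and 1108 of all lower. Median centring gave 2 listed genes and 548 of all higher. The series matrix values gave 0 listed genes higher and 6 lower, 0 further genes higher and 102 of all higher (unadjusted, 1 listed and 0 further higher), a median of −0.33, and sign changes for Tcf7 (−0.14) and Lef1 (−0.21). E1A centring, chosen after seeing the data, gave 0 and 6 listed, 0 and 7 further, 104 of all higher (unadjusted, 1 listed and 0 further higher), a median of −0.30, Tcf7 at −0.11 and Lef1 at −0.18. The share of called genes that were higher was 30.6% as reported, 41.9% by quantile normalization, 5.12% in the series matrix and 3.61% with E1A centring. Without a filter on dim probes there were 2 and 1 listed genes, 2 further genes lower, and 443 and 1051 of all. The mean of a gene's probes gave 1 further gene higher, and an intensity trend 4. Array weights gave 8 and 5 listed, 13 and 9 further, and 1939 and 4003 of all. At an adjusted p under 0.10 the counts were 7 and 5 listed, 6 further higher, and 1410 and 3125 of all. The replicate block, whose numbers are not said to pair mice, gave 0 listed genes lower (6 unadjusted) and 1 further gene lower. Over all genes it gave 236 higher and 376 lower, and 1 number of 4 correlated best with its own partner. Leaving out 1 array gave 2 to 7 listed genes higher and 0 to 3 lower, 1 to 13 further genes higher and 1 to 5 lower, 262 to 1730 of all higher and 534 to 3215 lower, and medians of 0.0088 to 0.10. Without enalapril 4 the listed counts were 7 and 3 and the further ones 13 and 5; without enalapril 1, enalapril 2, vehicle 1 or vehicle 4 the listed counts were 2 and 0, and without vehicle 2 they were 2 and 1. The listed genes lower at an unadjusted p under 0.05 then numbered 6, 7, 7, 5 and 6 in that order. Axin2 ranged from −1.82 to 0.47, changing sign without enalapril 2. Slide and scan could not be fitted as blocks, because each held 1 group. The probes for Wnt1, Wnt16 and Fzd5 were dim, though well above background on all 8 arrays (for Wnt1, on any of its 10 spots).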
